A study of Homo sapiens with 6 samples.

Results

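Of the oxysterol-binding protein family, 9 genes are described: OSBP, OSBPL1A, OSBPL2, OSBPL3, OSBPL5, OSBPL8, OSBPL9, OSBPL10 and OSBPL11. Their events are called family events here. The related genes OSBP2, OSBPL6 and OSBPL7, with 3, 8 and 1 tested events, were not among them and are given with the other genes of the pathway. Members were chosen by gene name and by read number, as every alternative splicing (AS) event of these genes with a mean of at least 10 junction reads over the 6 libraries. This gave 66 of 68 listed events, among 66377 events tested in the whole series. The read minimum left out a skipped exon of OSBPL8 with a mean of 1 read and a skipped exon of OSBPL9 with 1.33 reads, while the lowest members were the event of OSBPL5 (10.2 reads) and an exon 17 event of OSBPL3 (15.3 reads).

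NCI-H1975, an established human lung adenocarcinoma (LUAD) cell line, received 2 µg per well of the PCDNA3.1 plasmid (control, 3 libraries) or of the same plasmid carrying SAM68 (3 libraries), and RNA was taken after 48 h. The comparison asks which AS events change when SAM68, an RNA-binding splicing regulator encoded by KHDRBS1, is overexpressed in these cells. The libraries stood in lists without replicate numbers, and the first list was taken as control from the way the study draws its PKM reads. Library numbers below are list positions.

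Oxysterol-binding protein related proteins (ORPs) carry lipids across the narrow gaps where the endoplasmic reticulum (ER) touches other membranes. Their shared ligand-binding domain holds a sterol or phosphatidylserine in one direction and phosphatidylinositol 4-phosphate (PI4P) in the other, and most long members also carry a pleckstrin homology domain and a short motif that binds VAP proteins of the ER. OSBP, the founding member, exchanges cholesterol for PI4P between the ER and the Golgi.

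The skipped exon table held 16951876 to 19737729 junction reads per library, and a read can count in several events. KHDRBS1 rose from 318.5 ± 8.91 to 1255 ± 23.1 reads per 1000000 of each library's most read events (rpm; SD, n = 3 each), so the second list carried the transfected gene. Of the lung epithelial markers, 5 of 10 were listed. Their summed read density (reads per effective length, scaled to 1000000) was 1081 to 1298 in control and 1134 to 1144 in SAM68 libraries. Nearly all of it came from KRT18 and KRT8, with means of 886 and 253 over the 6 libraries. KRT7 (4.69), MUC1 (2.34) and NAPSA (0.388) were low. Of the fibroblast markers only DCN was listed (summed density 0 to 1.61 in control and 0.347 to 0.694 in SAM68 libraries), and no endothelial marker was. Of the leukocyte markers CD68 and CD79A were listed (summed density 85.0 to 94.2 in control and 90.6 to 95.5 in SAM68 libraries), nearly all from CD68, a lysosomal protein that epithelial cells also make. PTPRC, CD3E, EPCAM, CDH1, KRT19, NKX2-1 and SFTPB had no listed event, and genes without AS events cannot be seen in these tables.

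Percent spliced in (PSI) is the share of the inclusion form after each form's reads are divided by its effective length. Differences are SAM68 minus control, in percentage points. No family event was called, that is, none passed an adjusted p of 0.05 in the quasi-binomial test with a difference of at least 10 points, and 18 of 66377 events in the series were (0.0271%). At an unadjusted p under 0.05 stood 5 family events, against 8.46% of all events. A likelihood ratio test on pooled counts, which ignores the spread between libraries, called 4 family events: 2 of OSBPL1A, 1 of OSBPL5 and 1 of OSBPL8. It called 2.04% of all events.

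Most of these events were nearly constant. The inclusion form made up at least 95% in 37 events, at most 5% in 14, and lay between in 15. The difference was at least 10 points in 5 of 66 events (7.58%), against 7.17% of all events, and the median absolute difference was 1.15 points against 1.24. Both groups stayed apart, with a difference of at least 10 points, in 2 family events, against 1.65% of all events with reads in every library. Both belonged to OSBPL1A and share reads.

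OSBPL1A encodes ORP1, whose long form binds RAB7 on late endosomes and responds to cholesterol there. The gene lies on the - strand of chromosome 18 (chr18:24162052-24397824, GRCh38), and its canonical transcript in GENCODE 44 has 28 exons. Of its 9 tested events, 5 were at least 95% included and 2 at most 5%. The remaining 2 concern coding exons 18 and 19, both of which the study lists in its supplementary table as affected events, in a choice made on these libraries. The study also chose OSBPL1A to check its RNA-seq by q-PCR, and it reports that SAM68 regulates OSBPL1A splicing. Its primer sequences include some that match bases of exons 18 and 19. The q-PCR values were not used here. Exon 18 (chr18:24196125-24196200) has 76 bases, which is no multiple of 3. Exon 19 (chr18:24181145-24181279) has 135 bases, a multiple of 3, so leaving it out keeps the reading frame. Their reference sequences are shown because these exons carry the largest replicate-separated differences of the family, with exon bases in capitals and 20 intron bases on each side in lower case.
OSBPL1A exon 18: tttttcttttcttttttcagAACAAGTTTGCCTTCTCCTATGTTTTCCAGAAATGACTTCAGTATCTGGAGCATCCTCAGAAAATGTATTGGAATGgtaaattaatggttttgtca
OSBPL1A exon 19: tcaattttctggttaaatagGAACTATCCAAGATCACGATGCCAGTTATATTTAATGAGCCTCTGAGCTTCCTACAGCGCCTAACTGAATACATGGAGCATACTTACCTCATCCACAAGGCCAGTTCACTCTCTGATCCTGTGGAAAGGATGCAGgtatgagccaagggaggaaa

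For the exon 18 against exon 19 event, PSI counts the exon 18 form. It was 50.7%, 52.2% and 43.7% in control and 30.0%, 32.2% and 25.4% with SAM68. Every SAM68 library lay below every control library, a difference of -19.6 points. The quasi-binomial adjusted p was 0.0623, so the event missed the threshold. The exact permutation test gave p = 0.1 (two-sided), the smallest that 3 against 3 libraries allow. With 1 shared spread for all events of a type, an alternative chosen after seeing the data, the adjusted p was 0.0364 and the event was called.

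Skipping of exon 19 between exons 18 and 20 is a second event, but its 18 to 20 and 19 to 20 reads also enter the first. PSI of exon 19 was 79.3%, 90.2% and 86.2% in control and 95.3%, 97.9% and 93.0% with SAM68. The groups did not overlap, with a difference of 10.2 points (quasi-binomial adjusted p = 0.388). Without effective lengths it was 5.67 points. The skipping form rested on few reads, 17, 6 and 11 in control and 5, 1 and 6 with SAM68. As a share of the reads that left exon 18, the junction from 18 to 20 made up 23.0%, 11.3% and 14.3% in control and 6.33%, 2.70% and 13.3% with SAM68, and on this measure the groups overlapped (exact permutation p = 0.2). The junction from 17 to 19, as a share of reads leaving exon 17, overlapped too (5.41 ± 5.14% against 3.33 ± 5.77%, SD, n = 3 each, exact permutation p = 0.5). The third share compared both junctions of exon 19. The junction from 19 to 20 made up 56.2%, 57.7% and 51.8% of its sum with the junction from 18 to 19 in control and 63.7%, 60.9% and 75.5% with SAM68. These groups did not overlap, with a difference of 11.5 points (exact permutation p = 0.1, the smallest possible). This share reuses the 19 to 20 reads that enter both events above, so it is no separate measure.

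**Figure D1:**
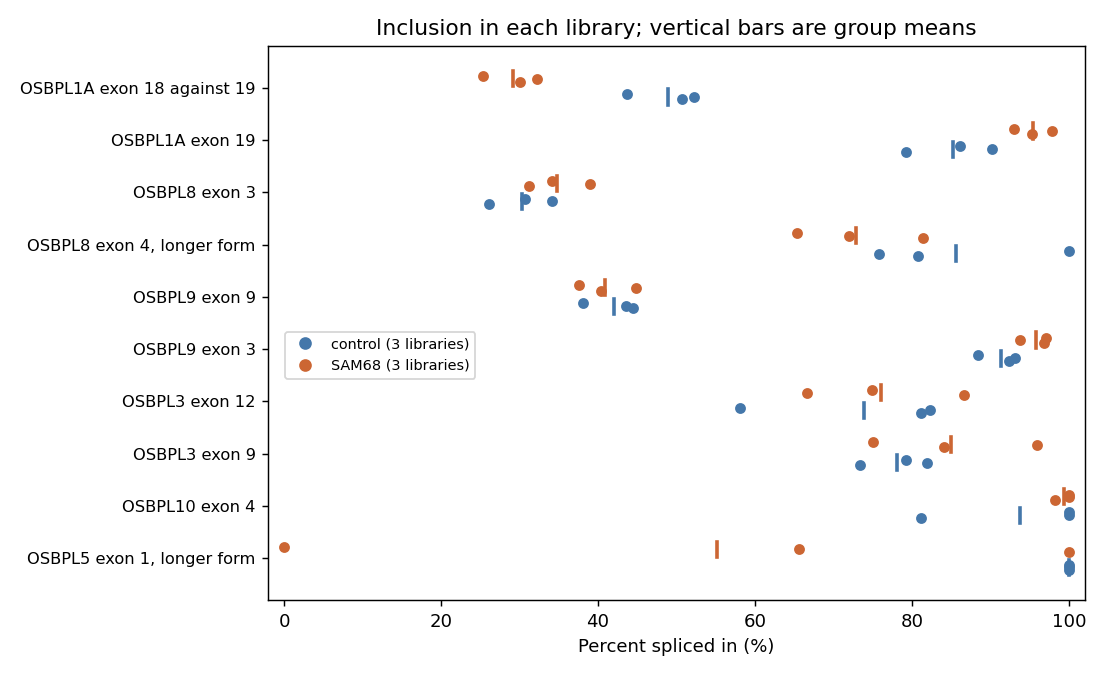
PSI (%) of 10 family events in each library, with control libraries in blue, SAM68 libraries in orange and vertical bars for group means. The groups stand apart for exon 18 against 19 and for exon 19 of OSBPL1A and for exon 3 of OSBPL9, and overlap in the other 7 events.

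The counts of these events overlap, so the reads of single junctions were obtained by subtraction. Most reads of the exon 18 against 19 event came from junctions that a transcript with both exons also has. Of its 787 reads, 57 (7.24%) joined exon 17 to 19 or exon 18 to 20, the junctions that leave an exon out, and the other 730 joined 17 to 18 or 19 to 20. The reads that joined 18 to 19 could be derived from both exons' skipping events, and gave the same number in 6 of 6 libraries. These were 57, 47 and 66 reads in control and 74, 36 and 39 with SAM68. The routes differed by at most 2 and 6 reads for OSBPL9 exons 2 and 3 and exons 14 and 15, but by up to 86 reads for its exons 6 and 7, of 48 and 30 bases, where the subtraction was not used. How reads across several junctions were counted is not given in the sources used here.

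The junction from exon 19 to 20 was higher in some SAM68 libraries. It had 73, 64 and 71 reads in control and 130, 56 and 120 with SAM68. SAM68 libraries 1 and 3 were high and library 2 lay below the controls in reads. Per 1000000 reads of the skipped exon table this was 3.70 ± 0.398 against 5.65 ± 2.04 (SD, n = 3 each, exact permutation p = 0.3). The junction from exon 17 to 18 had 47, 50 and 33 reads in control and 39, 20 and 27 with SAM68, or 2.30 ± 0.462 against 1.58 ± 0.398 on that scale (SD, n = 3 each, exact permutation p = 0.2). Neither junction separated the groups in every library.

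Reads out of exon 19 exceeded reads into it. Subtracting the reads that joined exon 17 or 18 to 19 from those that joined 19 to 20 left 10, 16 and 4 reads in control and 56, 20 and 78 with SAM68. Every SAM68 library lay above every control library, by 4 reads at the nearest pair (exact permutation p = 0.1 on the scaled counts, two-sided, the smallest possible). This measure was chosen after its values were seen. The reads out of the second exon were below the reads into it in 6 of 6 libraries for the like pairs of OSBPL3 (exons 18 and 19) and OSBPL9 (exons 2 and 3, and 14 and 15). Among the neighbouring OSBPL1A junctions, 21 to 22 had 683 reads and 20 to 21 had 412 over the 6 libraries, so unequal neighbours are not limited to exon 19. Reads from 20 to 21 overlapped between groups (exact permutation p = 0.6). They were 3.62 ± 0.214 per 1000000 in control and 3.85 ± 0.554 with SAM68 (SD, n = 3 each). The junction from 21 to 22 moved the other way from 19 to 20, with 6.85, 6.82 and 6.60 reads per 1000000 in control and 6.28, 5.25 and 5.23 with SAM68. Every SAM68 library was below every control library (exact permutation p = 0.1, the smallest possible). Both junctions were named after their values were seen, and no second route checked their subtraction.

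The short motifs TAAA and TTAA, which resemble the U- and A-rich sites SAM68 is known to bind, were counted on the transcribed strand in the 100 intron bases on each side of every tested skipped exon, with overlapping matches counted. Exon 18 had 7 matches, a number reached by 10.8% of 38685 such windows, and exon 19 had 5, reached by 23.6%. The median was 2 in all windows and 2 in the 52 windows of the family, of which 84.6% held a match against 71.0% of all windows. The most, 11, lay beside exon 5 of OSBPL11 and exon 21 of OSBPL8, whose inclusion was above 99% in both groups. These 2 exons were named after their values were seen.

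OSBPL5 and OSBPL8 encode ORP5 and ORP8, anchored in the ER by a membrane-spanning tail, which exchange phosphatidylserine for PI4P at contacts with the plasma membrane. OSBPL8 (chr12:76351797-76559771, - strand) had 9 tested events. Its exons 3 and 4 were the variable ones. Exon 3 (chr12:76459859-76459895) is a coding exon of 37 bases, and exon 4 (chr12:76450851-76450988) begins at either of 2 acceptors 9 bases apart. The sequences show exon 3 with 20 intron bases on each side, and the start of exon 4, where the first 9 capitals belong to the longer form only.
OSBPL8 exon 3: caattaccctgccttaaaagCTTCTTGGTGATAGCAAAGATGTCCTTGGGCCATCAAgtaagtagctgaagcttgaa
OSBPL8 exon 4 start: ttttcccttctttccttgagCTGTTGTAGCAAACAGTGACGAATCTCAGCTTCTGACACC

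Read against the longer acceptor of exon 4, inclusion of OSBPL8 exon 3 was 26.2%, 34.1% and 30.7% in control and 31.2%, 39.0% and 34.1% with SAM68. Skipping reads to the shorter acceptor are not in these shares. These ranges overlapped, and the quasi-binomial adjusted p was 0.566 for a difference of 4.40 points. The difference was 2.31 points without control library 1 and 2.27 without SAM68 library 2. When exon 3 was read against the shorter acceptor of exon 4, the skipping reads were 19, 21 and 0 in control and 11, 18 and 27 with SAM68. Control library 3, at 100% inclusion with 8 reads, set the control mean of 50.6% against 10.4% with SAM68. The same reads stand in the acceptor choice of exon 4. Both events were named after their values were seen. The longer form made up 80.8%, 75.8% and 100% in control and 81.4%, 71.9% and 65.3% with SAM68, which overlap. Control library 3 had 0 of 64 reads from the shorter form, which allows a share of up to 4.69% by counting error alone. The shorter-form reads equal the exon 3 skipping reads above, so this choice was read only where exon 3 was left out.

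OSBPL5 (chr11:3087107-3165310, - strand) had 1 event, a choice between donors 7 bases apart in its untranslated first exon, which the study also lists. The bases around them are shown with the longer form in capitals, of which the last 7 are absent from the shorter form.
OSBPL5 exon 1 end: CGCGGCACGGTAGGAGgtaggagcgcgg

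The longer form of OSBPL5 exon 1 had 11, 9 and 11 reads in control against 0, 0 and 0 of the shorter form. With SAM68 it had 15, 8 and 0 reads against 0, 4 and 3. PSI was thus 100% in every control library and 100%, 65.7% and 0% with SAM68, which overlap at 100%. The difference was -44.8 points (quasi-binomial adjusted p = 0.621), and SAM68 library 3 held only 3 reads. Without that library the difference was -17.2 points. The 0 of 31 control reads allow a share of the shorter form of up to 9.68%.

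OSBPL9, OSBPL10 and OSBPL11 encode ORP9, ORP10 and ORP11, which act at contacts of the ER with the Golgi or endosomes, and ORP9 pairs with either of the others. OSBPL9 (chr1:51617092-51789219, + strand) held 18 tested events, the most of the family. Its exon 9 (chr1:51756320-51756358), of 39 bases, was the most evenly divided cassette exon. It is shown with 20 intron bases on each side.
OSBPL9 exon 9: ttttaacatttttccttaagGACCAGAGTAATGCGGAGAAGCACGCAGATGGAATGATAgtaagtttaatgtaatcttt

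Inclusion of OSBPL9 exon 9 was 44.4%, 43.6% and 38.1% in control and 40.4%, 44.8% and 37.5% with SAM68. The groups overlapped throughout, with a difference of -1.12 points. This exon and exon 3 of OSBPL9 were named after their values were seen. Inclusion of the 79-base exon 3 was 92.4%, 93.2% and 88.4% in control and 96.8%, 93.8% and 97.0% with SAM68. These groups did not overlap, by less than 1 point at the nearest pair, and the difference of 4.56 points had a quasi-binomial adjusted p of 0.566. Its skipping reads were 5, 5 and 7 against 2, 5 and 2, and the same reads enter the event of its longer, 381-base form.

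By the number of reads of its rarer form, the leading OSBPL9 event was exon 14 against exon 15. PSI of exon 14 was 67.4%, 68.6% and 66.1% in control and 70.3%, 67.9% and 70.9% with SAM68, a difference of 2.37 points (quasi-binomial adjusted p = 0.873). Only 4 of its 1234 reads (0.324%) came from junctions that leave out an exon. As with OSBPL1A, most reads of this event came from junctions that a transcript with both exons also has.

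OSBPL10 (chr3:31660825-31981262, - strand) had 3 tested events and OSBPL11 (chr3:125528858-125595497, - strand) had 4, all with inclusion of at least 95% over the 6 libraries. Exon 4 of OSBPL10 was included at 81.1%, 100% and 100% in control and 98.2%, 100% and 100% with SAM68. Control library 1 alone was low, with 12 skipping reads against 103 inclusion reads. Without it the difference of 5.69 points turned to -0.606. Without effective lengths the difference was 3.17 points. Exon 9 of OSBPL11 had no skipping read in control and 2, 0 and 1 with SAM68, a difference of -1.53 points (quasi-binomial adjusted p = 0.566). It was -0.840 points without SAM68 library 1 and -0.773 without effective lengths.

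OSBP, OSBPL2 and OSBPL3 made up the remaining genes. OSBP (chr11:59574398-59615774, - strand) had 2 events, on coding exons 7 and 9, both near full inclusion. Exon 9 had 1, 1 and 0 skipping reads in control and 1, 2 and 0 with SAM68 beside 1152 inclusion reads in all, and the difference was -0.247 points. It was -0.130 without effective lengths, 0.104 without control library 3 and 0.276 without SAM68 library 2.

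OSBPL2 (chr20:62238521-62296183, + strand), a short member whose protein binds sterols and PI4P, had 11 events, of which 4 were at least 95% and 7 at most 5% included. Its retained intron was the event with the most reads of the rarer form, 21. PSI of the retained form was 7.25%, 0% and 6.45% in control and 4.76%, 4.92% and 5.77% with SAM68, a difference of 0.584 points. The difference was 1.25 points without effective lengths and -1.70 without control library 2. Exon 3 of OSBPL2 also has 2 acceptors, 36 bases apart. The first 36 capitals belong to the longer form, which made up 97.2% ± 4.80 in control and 97.8% ± 2.63 in SAM68 libraries (SD, n = 3 each). This event was named after its values were seen, to set it beside that of OSBPL8.
OSBPL2 exon 3 start: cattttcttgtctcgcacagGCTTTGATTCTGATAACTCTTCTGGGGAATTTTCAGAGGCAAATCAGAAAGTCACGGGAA

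OSBPL3 (chr7:24796540-24980178, - strand) encodes ORP3, which acts at contacts of the ER with the plasma membrane. It had 9 events, of which 4 lay between 5% and 95%. Its exon 18 against exon 19 event gave PSI of 40.4%, 26.9% and 47.3% in control and 36.8%, 44.4% and 37.4% with SAM68, which overlap (difference 1.35 points, quasi-binomial adjusted p = 0.991). The difference was -4.31 points without control library 2 and 5.90 without control library 3. Of the 356 reads of this event, 3 (0.843%) left out an exon. The cassette exons 12 and 9, named after their values were seen, are both multiples of 3 (108 and 93 bases).
OSBPL3 exon 12: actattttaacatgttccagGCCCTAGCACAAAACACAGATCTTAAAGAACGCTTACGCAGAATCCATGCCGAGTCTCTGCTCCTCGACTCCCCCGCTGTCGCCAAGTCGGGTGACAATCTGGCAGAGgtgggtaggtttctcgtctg
OSBPL3 exon 9: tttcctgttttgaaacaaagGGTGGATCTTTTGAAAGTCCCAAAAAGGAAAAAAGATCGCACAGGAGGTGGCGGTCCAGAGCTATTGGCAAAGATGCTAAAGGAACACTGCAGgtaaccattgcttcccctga

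Inclusion of OSBPL3 exon 12 was 81.2%, 82.2% and 58.1% in control and 86.7%, 66.7% and 74.9% with SAM68. Inclusion of exon 9 was 73.3%, 81.9% and 79.2% in control and 84.1%, 95.9% and 75.0% with SAM68. Both pairs of groups overlapped.

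Among the 54 skipped exon events of the family, 41 concern an exon of the canonical transcript, and 34 of these were included at 95% or more. Of the 13 on other exons, 10 were included at 5% or less. In between lay 8 events, 5 of them on exons whose length is a multiple of 3.

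The level of each gene was read from its event with the most reads. Per effective length, the order from high to low was OSBPL8, OSBPL9, OSBP, OSBPL1A, OSBPL3, OSBPL11, OSBPL10, OSBPL2 and OSBPL5. Mean read density was 52.0 ± 9.40 for OSBPL8, 27.3 ± 2.30 for OSBPL1A, 15.8 ± 3.38 for OSBPL2 and 2.90 ± 1.09 for OSBPL5 (SD over 6 libraries). Neighbours in this order overlapped in their ranges, except OSBPL2 and OSBPL5. OSBPL8 stood at the 70.7th percentile of the genes tested and OSBPL5 at the 4.09th.

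**Figure D2:**
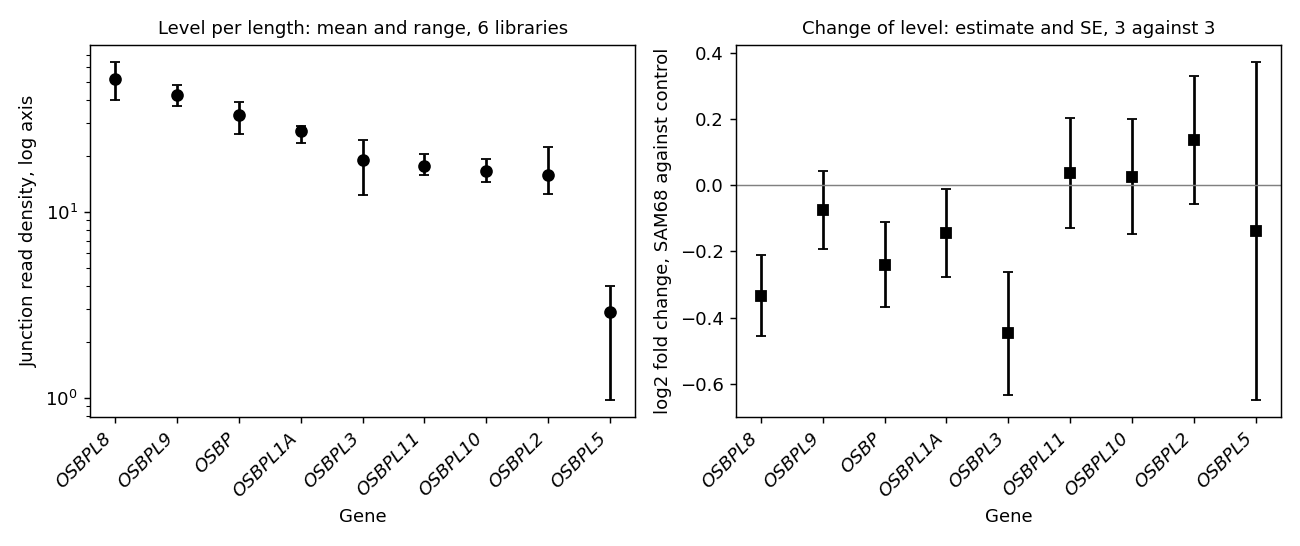
Left, read density per effective length of the 9 genes (log axis, mean and range over 6 libraries); right, log2 fold change of the rpm level (SAM68 against control, 3 libraries each, with standard error). OSBPL5 lies below the other 8 genes, and the estimates run from -0.45 for OSBPL3 to 0.14 for OSBPL2.

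No family gene passed a limma adjusted p of 0.05 together with a log2 fold change of at least 1, against 0.0493% of 10147 genes, and none passed the adjusted p alone, against 0.414%. At an unadjusted p under 0.05 stood 2 of the 9 genes, OSBPL8 and OSBPL3, against 12.1% of all genes. With a library left out there were between 0 and 3 such genes, with 0 without control library 1 and 0 without SAM68 library 1. OSBPL8 had 65.3, 48.8 and 62.4 rpm in control and 40.6, 47.2 and 51.7 with SAM68. These ranges overlapped, at a log2 fold change of -0.33 (standard error 0.12, adjusted p = 0.236 from limma). OSBPL3 had 24.0, 27.4 and 21.2 rpm in control and 13.4, 16.9 and 23.7 with SAM68, which overlapped through SAM68 library 3 (log2 fold change -0.45, standard error 0.19, adjusted p = 0.322 from limma). The OSBPL3 log2 fold change ran from -0.26 without SAM68 library 1 to -0.66 without SAM68 library 3 (limma adjusted p = 0.0844), and was -0.19 with the reads of all its events summed. OSBP had 38.3, 44.6 and 39.0 rpm against 30.0, 38.2 and 35.0, which did not overlap by 0.1 rpm (log2 fold change -0.24, standard error 0.13, adjusted p = 0.469 from limma). The OSBP value ran from -0.15 without SAM68 library 1 to -0.32 without SAM68 library 2, and was -0.01 with summed reads (limma adjusted p = 0.973). The median log2 fold change was -0.14 over the 9 genes and -0.03 over all genes. OSBPL1A itself had 32.5 ± 0.221 rpm in control and 29.5 ± 3.24 rpm in SAM68 libraries (SD, n = 3 each). In these bulk libraries, fewer cells of a kind and less RNA per cell cannot be told apart.

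The genes whose levels followed OSBPL1A most closely over the 6 libraries were ZNF451 (Pearson r = 0.997), PI4KAP2 (r = 0.988) and ABCC10 (r = 0.982), among 10147 genes that share library depth. With this many genes and 6 libraries such values describe the libraries only.

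Of the other genes of the pathway, 44 were listed from textbook knowledge, with earlier results of these data known, and 40 were tested: further family genes, VAP proteins, phosphatidylinositol 4-kinases, a PI4P phosphatase, and genes of lipid transport and sterol synthesis and uptake. Their 319 tested events held 0 calls by the quasi-binomial test and 26 at an unadjusted p under 0.05, where 8.46% of all events stood, and the median difference was -0.01 points. Of the 40 genes, 0 were called by limma and 6 stood at an unadjusted p under 0.05, where 12.1% of all genes did, with a median log2 fold change of -0.07. OSBPL6 had 20.1 ± 1.31 rpm in control and 14.4 ± 1.74 in SAM68 libraries, which did not overlap (adjusted p = 0.258 from limma). OSBP2 (4.98 ± 2.69 against 3.77 ± 0.276 rpm) and OSBPL7 (2.53 ± 0.846 against 1.45 ± 0.551 rpm) were low and overlapped between groups (SD, n = 3 each). Of the 12 events of OSBP2, OSBPL6 and OSBPL7 none was called. The OSBPL7 event, a skipped exon with a mean of 11.8 reads, was included at 100%, 78.2% and 70.2% in control and 100% in each SAM68 library, which overlap (17.2 points, quasi-binomial adjusted p = 0.566). It was the only one of the 12 with a difference of at least 10 points and was named after its values were seen.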

How the data were processed

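RNA of 3 control and 3 SAM68 libraries of NCI-H1975 cells was sequenced by the authors on an Illumina NovaSeq as paired-end reads. They filtered and trimmed the reads, aligned them with hisat2 to GRCh38 and ran rMATS. The submitters' processing notes name CASAVA 1.4, fastp 0.20.0 and HISAT2 2.1.0. The version and annotation of rMATS are not given in the sources used here. The deposited tables hold, per the file headers, the authors' unnormalized junction read counts of the inclusion and skipping forms as lists of 3 values per group, their effective lengths and inclusion levels. They also hold p-values, FDR values and differences of the authors' own comparison, which were not used.

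Of 78336 listed events, 275 in the A3SS table had digits regrouped by a spreadsheet. Of these, 144 were recovered from the listed inclusion levels and 131 were left out, and none belonged to the family. PSI was computed from counts per effective length. In mutually exclusive exons it refers to the exon nearer the 5′ end. Events averaging 10 reads or more entered a quasi-binomial model with group as its term. The Pearson dispersion was moderated within event type by squeezeVar of limma 3.58.1 in R 4.3.3, then raised to at least 1, and an F test was made on the change in deviance. P-values were adjusted by Benjamini-Hochberg within each type over all events. Raising the dispersions to 1 before moderation makes all events of a type share 1 spread, and is given as an alternative chosen after seeing the data. A call needed an adjusted p under 0.05 and 10 points.

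Gene levels were the reads of the most read event per 1000000 such reads (rpm, 5449695 to 6337736 reads per library). On log2(rpm + 0.5), limma with a trended eBayes step was run over the 10147 genes averaging 10 reads or more, and a gene was called at a log2 fold change of at least 1. Read density is the same count per effective length, scaled alike. Single values were compared by exact permutation tests, two-sided. The quasi-binomial and limma tests set a difference against the spread between these libraries, partly borrowed from other events or genes. The pooled likelihood ratio test uses no such spread. The quasi-binomial test and the limma test of gene levels were also run on simulated counts, and the outcome is not given here. Exon numbers came from GENCODE 44 and sequences from hg38. Intervals and limits of 3 reads cover counting error only. The family members and gene lists were chosen with earlier results of these data known. Named were all 9 genes, events the study lists, events at 10 points or more whose groups stay apart, and each gene's event with most reads of the rarer form, and any other name is stated as chosen after its values were seen. Alternatives were other treatments of the spread, PSI without lengths, read minimums, adjustment over all types, pseudocount, gene read choice, scaling and leaving out each library.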

Additional observations from a re-analysis of the deposited data

How the results depend on the processing

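The number of family events called was 0 as reported and under the alternatives tried, except 4 when a likelihood ratio test was run on pooled counts and 1 with 1 shared dispersion per event type (chosen after seeing the data). The latter called the exon 18 against 19 event of OSBPL1A (-19.6 points, adjusted p = 0.0364). Over that event's alternatives the adjusted p ran from 1.24e-06 to 0.863. The pooled test called the same event (-19.6 points), exon 19 of OSBPL1A (10.2 points), the donor choice of OSBPL5 (-44.8 points) and the exon 3 event of OSBPL8 read against the shorter acceptor. Leaving out each library in turn gave 0 called events and genes, and differences of -22.2 to -17.7 points for OSBPL1A exon 18 against 19, 7.19 to 12.7 for its exon 19 and -44.8 to -17.2 for OSBPL5. Without effective lengths, exon 19 of OSBPL1A differed by 5.67 points. The called numbers of family genes, and of events and genes of the pathway list, were 0 under each alternative.

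Some small differences, none called, changed sign. With a library left out, the differences ranged from -0.721 to 0.276 points for exon 9 of OSBP, -0.606 to 8.84 for exon 4 of OSBPL10, -1.70 to 1.92 for the retained intron of OSBPL2 and -4.31 to 5.90 for OSBPL3 exon 18 against 19. The log2 fold changes ranged from -0.086 to 0.089 for OSBPL10, -0.064 to 0.11 for OSBPL11, -0.085 to 0.32 for OSBPL2, -0.24 to 0.33 for OSBPL5 and -0.16 to 0.0047 for OSBPL9. With the reads of all events summed, the log2 fold change was -0.047 for OSBPL10, -0.038 for OSBPL11 and -0.017 for OSBPL2, and with reads per effective length it was -0.016 for OSBPL10. The cause was not tested.

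The OSBPL5 event fell below the stricter read minimums, and below the minimum without SAM68 library 1 or 2, and gave no value there. No paired analysis was possible because the lists carry no replicate numbers. The event of OSBPL5 and the skipping forms of OSBPL1A rest on few reads, which limits their precision. The number of events called in the whole series depended on how the spread was treated. It was 2 with each event's own dispersion and 1354 with the pooled likelihood ratio test, against 18 as reported. The cause was not tested.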
